A study of Arabidopsis thaliana with 8 samples.

Results

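The genes described here had a higher signal in iron-deficient than in iron-sufficient roots of fit plants and little or no higher mean signal in iron-deficient WT roots. They were chosen by their measured values on an expression array of Arabidopsis thaliana, and 20 of 22746 probe sets met the rule. A probe set is the group of probes on the array that reads 1 transcript or a few related ones. On the log2 scale, the lower of the 2 iron-deficient fit arrays had to exceed the higher of the 2 iron-sufficient fit arrays by at least 0.8, a distance called the gap below. The mean difference between iron-deficient and iron-sufficient WT arrays had to stay under 0.5. The rule also names 12 genes to be left out, and 8 of those met both thresholds.

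RNA came from whole roots of fit and WT plants, grown for 14 days on Gamborg medium and then moved for 3 days to a medium with or without iron. The 4 groups, each with 2 arrays from samples labelled as biological replicates, were iron-deficient fit (fit -Fe), iron-sufficient fit (fit +Fe), iron-deficient WT (WT -Fe) and iron-sufficient WT (WT +Fe). Iron-sufficient medium held 50 µM Fe(III)-EDTA, and iron-deficient medium held 300 µM of the iron chelator ferrozine and no added Fe(III)-EDTA. The labels give neither the fit allele, its background accession nor the number of plants pooled for an array, and the mutated gene was not checked because no probe set names FIT alone.

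FIT is a basic helix-loop-helix transcription factor that, with partners of subgroup Ib, switches on the genes for iron reduction, iron import and coumarin secretion in the root epidermis. Plants that lack it take up too little iron and develop chlorosis unless iron is supplied in excess. The transcripts described here are higher in iron-deficient fit roots and not in iron-deficient WT roots. Whether the fit plants used here lacked the usual uptake response was not checked.

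Among the 20 probe sets, the mean iron-deficient signal in fit was between 1.94-fold and 4.33-fold of the iron-sufficient one, with a median of 2.56-fold. The same difference in WT had a median of 0.07 on the log2 scale and ranged from -0.73 to 0.47. Under iron deficiency, mean signal was higher in fit than in WT for all 20, by 0.69 to 2.41 on the log2 scale (median 1.22). These ranges follow from the choice of the members and carry no test. All 8 arrays entered the rule, so no array was free to test the response of the members again.

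Of the 20, 5 name 1 gene in the platform annotation, 1 names several genes and is therefore given no name, and 14 are unnamed here and go by their identifiers. The 5 genes are AT1G69526, AT5G13610, AT3G01490, AT2G04230 and nad1. No genome sequence or promoter table was used here, so no sequence is shown.

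**Figure D1:**
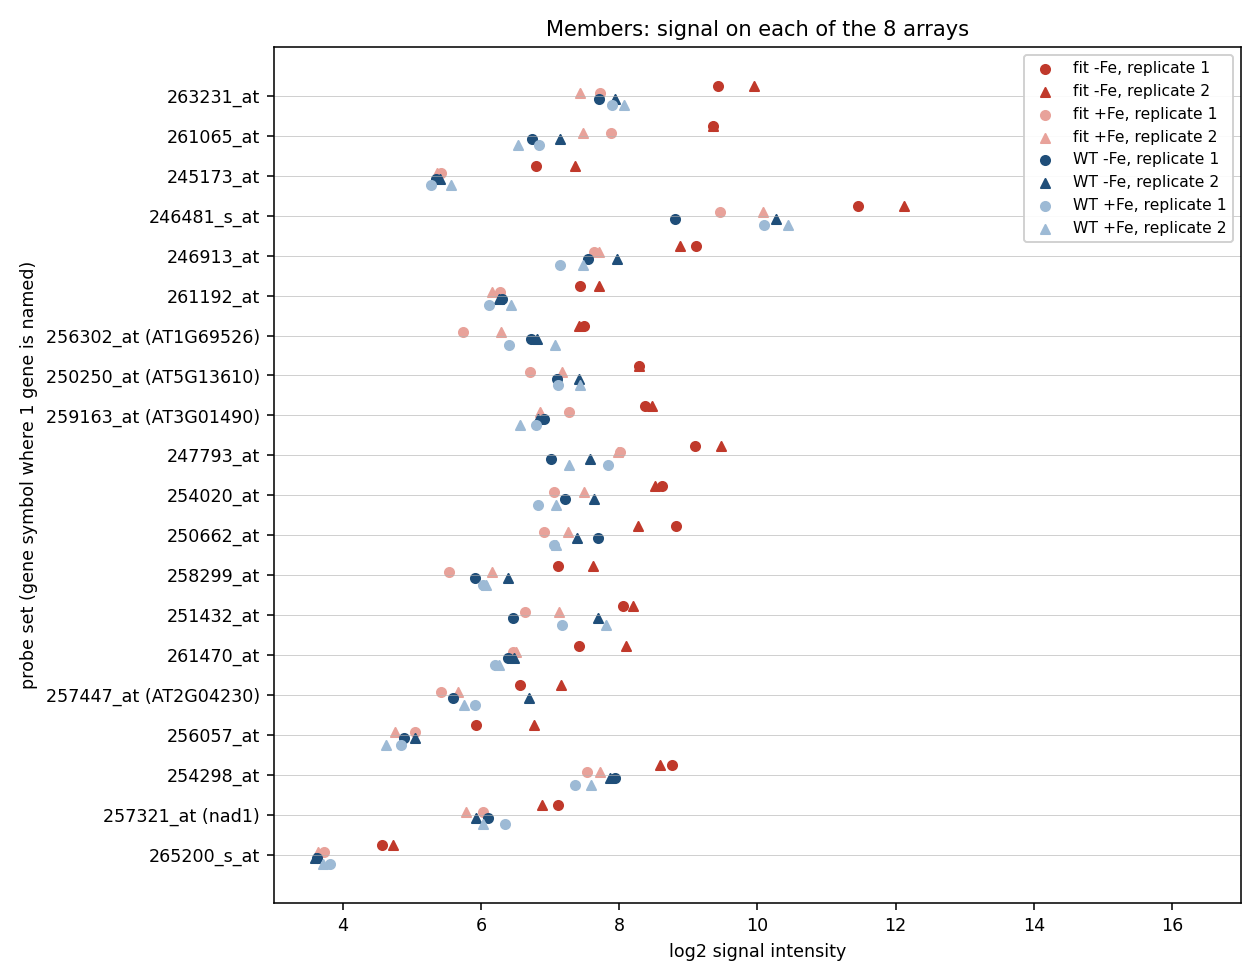
Log2 signal intensity (horizontal axis) of the 20 probe sets (rows, widest gap at the top) on each of the 8 arrays, with colour for group and marker shape for replicate. The iron-deficient fit arrays lie to the right of all 6 other arrays for 19 of the 20. For 257447_at (AT2G04230), WT -Fe replicate 2, at 6.69, lies above fit -Fe replicate 1, at 6.57.

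AT3G01490 (259163_at) encodes a protein kinase, known as CBC1 for its role in the response of guard cells to blue light and carbon dioxide. Its log2 signal was 8.38 and 8.48 on the fit -Fe arrays and 7.27 and 6.85 on the fit +Fe arrays, against 6.92 and 6.83 on the WT -Fe arrays and 6.79 and 6.57 on the WT +Fe arrays. The fit -Fe arrays stood apart from the rest, and both fit +Fe arrays were also above both WT +Fe arrays. The mean was 2.58-fold higher in fit -Fe than in fit +Fe roots (log2 1.37, SE 0.20) and 2.94-fold higher in fit -Fe than in WT -Fe roots. A related kinase, AT5G50000, known as CBC2 and looked up after the values of AT3G01490 were seen, had a log2 difference of -0.51 (SE 0.18) between fit -Fe and fit +Fe roots and was not called (limma adjusted p = 0.50).

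AT5G13610 (250250_at) encodes a protein of a family with a domain of unknown function, related to RETARDED ROOT GROWTH. Its log2 signal was 8.29 and 8.28 on the fit -Fe arrays and 6.71 and 7.17 on the fit +Fe arrays, and it was 7.10 and 7.42 on the WT -Fe arrays and 7.12 and 7.43 on the WT +Fe arrays. The iron-deficient fit arrays were nearly identical, and the WT groups covered nearly the same range. The mean was 2.55-fold higher in fit -Fe than in fit +Fe roots (log2 1.35, SE 0.23).

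AT1G69526 (256302_at) encodes a putative methyltransferase that uses S-adenosylmethionine. Its log2 signal was 7.49 and 7.42 on the fit -Fe arrays and 5.74 and 6.29 on the fit +Fe arrays. In WT it was 6.73 and 6.81 on the -Fe arrays and 6.41 and 7.07 on the +Fe arrays. Both fit +Fe arrays lay below both WT +Fe arrays, with a mean difference of -0.72 between fit and WT, the most negative of the 20, and the difference under iron deficiency, 0.69, was the smallest of the 20. The neighbouring methyltransferase gene AT1G69523, looked up afterwards, had 0.19 (SE 0.17) between fit -Fe and fit +Fe roots and was dim, at 4.00 to 4.37 on the 8 arrays.

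AT2G04230 (257447_at) encodes a protein with an F-box and an FBD domain, a large plant family of which many members recruit substrates to ubiquitin ligases. Its log2 signal was 6.57 and 7.15 on the fit -Fe arrays and 5.43 and 5.67 on the fit +Fe arrays, against 5.60 and 6.69 on the WT -Fe arrays and 5.92 and 5.75 on the WT +Fe arrays. The WT -Fe arrays differed by 1.10, and replicate 2 reached the range of the fit -Fe arrays. This is the 1 member whose iron-deficient fit arrays overlapped with another group.

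The gene nad1 is encoded in the mitochondrial genome and specifies a membrane subunit of respiratory complex I, a large enzyme with several iron-sulfur clusters. Its coding parts lie apart in the genome and are joined by trans-splicing. Probe set 257321_at read 7.11 and 6.89 on the fit -Fe arrays and 6.04 and 5.79 on the fit +Fe arrays, against 6.11 and 5.93 on the WT -Fe arrays and 6.35 and 6.03 on the WT +Fe arrays. The mean was 2.13-fold higher in fit -Fe than in fit +Fe roots (log2 1.09, SE 0.20), and replicates of a group differed by 0.18 to 0.31.

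The array has 7 probe sets that name nad1 alone, and 257321_at was the only one with a gap of at least 0.8. Of the other 6, 5 had a positive mean log2 difference between fit -Fe and fit +Fe roots and 1 a negative one. The sizes varied, from -0.46 for 257322_at to 1.77 for 257325_at. Of these 6, 4 (257324_at, 257325_at, 257327_at and 257329_at) read 1.51 to 2.02 higher on fit -Fe replicate 2 than on replicate 1, and the same 4 read 0.81 to 1.47 higher on WT -Fe replicate 2 than on replicate 1. On 257324_at, for example, the fit -Fe arrays had 5.55 and 7.56 and the fit +Fe arrays 5.50 and 5.64, while the WT -Fe arrays had 5.16 and 6.48 and the WT +Fe arrays 5.60 and 5.63. The 8 probe sets naming other mitochondrial nad genes alone, from nad2 to nad9, had differences from -0.22 to 1.10 in fit. Of these 8, 6 were positive and 2 negative, and none had a gap of at least 0.8. The 1.10 was for nad6 (244953_s_at), which read 2.02 higher on fit -Fe replicate 2 than on replicate 1. Probe sets 244943_at (nad9) and 257337_at (nad5) also read higher on that replicate, by 1.86 and 1.26. Of the 8, only 257338_s_at (nad5) read lower on it, with a difference of -0.16. No nad probe set was called in the iron response in fit by limma without a replicate block, while with the block 257321_at was called. The statement on nad1 therefore rests on 1 of 7 probe sets.

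**Figure D2:**
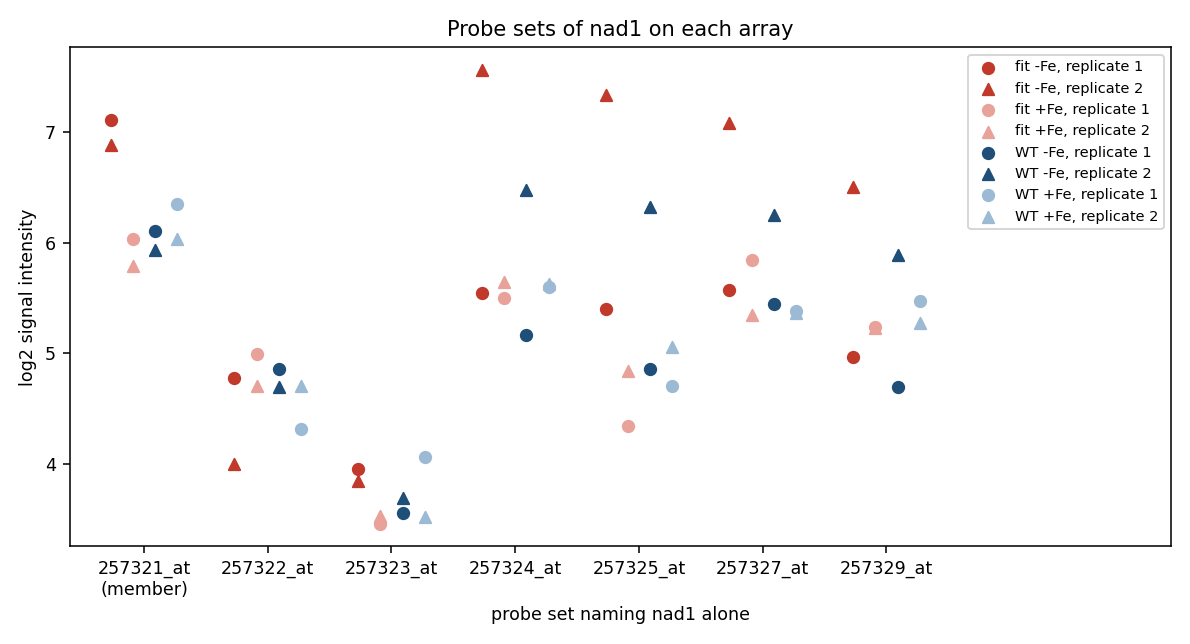
Log2 signal intensity (vertical axis) on each array for the 7 probe sets that name nad1 alone, with colour for group and marker shape for replicate. The member 257321_at has both iron-deficient fit arrays, at 7.11 and 6.89, above the other 6. In 4 of the other probe sets the highest values are those on replicate 2 of the iron-deficient groups.

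Among probe sets without a single gene name, 263231_at had the widest gap of the 20. It read 9.44 and 9.95 on the fit -Fe arrays and 7.73 and 7.44 on the fit +Fe arrays, against 7.71 and 7.94 on the WT -Fe arrays and 7.90 and 8.06 on the WT +Fe arrays. All arrays but the iron-deficient fit ones lay within 7.44 to 8.06. The mean was 4.33-fold higher in fit -Fe than in fit +Fe roots (log2 2.11, SE 0.23).

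Probe set 261065_at read 9.36 on both fit -Fe arrays and 7.88 and 7.48 on the fit +Fe arrays, against 6.74 and 7.15 on the WT -Fe arrays and 6.84 and 6.53 on the WT +Fe arrays. Under iron sufficiency its mean was higher in fit than in WT by 0.99 on the log2 scale (SE 0.23), the largest such difference among the 9 members where it was positive, and it had the largest difference between fit and WT under iron deficiency, 5.33-fold. Probe set 245173_at was dimmer, with 6.79 and 7.36 on the fit -Fe arrays and 5.42 and 5.36 on the fit +Fe arrays, against 5.35 and 5.41 on the WT -Fe arrays and 5.28 and 5.57 on the WT +Fe arrays. Outside iron-deficient fit roots its values lay within 5.28 to 5.57, so 3 of the 4 groups did not differ beyond the spread of their arrays.

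For 3 members the mean in WT was lower under iron deficiency by more than 0.2. The probe set naming several genes, 246481_s_at, was the brightest member and read 11.46 and 12.13 on the fit -Fe arrays and 9.46 and 10.08 on the fit +Fe arrays, against 8.81 and 10.28 on the WT -Fe arrays and 10.09 and 10.45 on the WT +Fe arrays. Its WT -Fe arrays differed by 1.47, more than their mean difference from WT +Fe, -0.73, so the lower mean in WT rests on replicate 1. On 251432_at the fit -Fe arrays had 8.05 and 8.20 and the fit +Fe arrays 6.63 and 7.13, against 6.46 and 7.69 for WT -Fe and 7.17 and 7.82 for WT +Fe, again with a WT -Fe replicate 1 well below replicate 2. On 247793_at the fit -Fe arrays had 9.10 and 9.47 and the fit +Fe arrays 8.01 and 7.99, against 7.02 and 7.58 for WT -Fe and 7.84 and 7.27 for WT +Fe. The WT groups overlapped for all 3.

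For 4 members the WT mean was higher under iron deficiency by 0.42 to 0.47, just under the limit of the rule, and in each of them both WT -Fe arrays lay above both WT +Fe arrays. Probe set 246913_at had 9.11 and 8.88 on the fit -Fe arrays and 7.64 and 7.71 on the fit +Fe arrays, against 7.55 and 7.97 for WT -Fe and 7.15 and 7.48 for WT +Fe. On 254020_at the values were 8.62 and 8.51 for fit -Fe and 7.06 and 7.49 for fit +Fe, against 7.22 and 7.63 for WT -Fe and 6.82 and 7.09 for WT +Fe. These probe sets had a smaller positive difference in WT, so the rule places them beside members with none. On 250662_at fit -Fe had 8.82 and 8.27 and fit +Fe 6.91 and 7.27, against 7.70 and 7.38 for WT -Fe and 7.05 and 7.09 for WT +Fe. On 254298_at fit -Fe had 8.77 and 8.59 and fit +Fe 7.54 and 7.73, against 7.95 and 7.86 for WT -Fe and 7.37 and 7.60 for WT +Fe.

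The other 5 had WT means that differed by less than 0.25 between the iron supplies. On 261192_at fit -Fe had 7.44 and 7.71 and fit +Fe 6.27 and 6.16, against 6.30 and 6.26 for WT -Fe and 6.12 and 6.44 for WT +Fe. On 261470_at fit -Fe had 7.42 and 8.09 and fit +Fe 6.47 and 6.50, against 6.39 and 6.48 for WT -Fe and 6.20 and 6.26 for WT +Fe. Both stayed in a narrow range outside iron-deficient fit roots. On 258299_at fit -Fe had 7.12 and 7.62 and fit +Fe 5.54 and 6.16, against 5.92 and 6.39 for WT -Fe and 6.03 and 6.08 for WT +Fe. On 256057_at fit -Fe had 5.93 and 6.77, the widest spread of the 20 in that group, and fit +Fe 5.05 and 4.75, against 4.88 and 5.05 for WT -Fe and 4.84 and 4.63 for WT +Fe. The dimmest member, 265200_s_at, had 4.56 and 4.73 for fit -Fe and 3.73 and 3.65 for fit +Fe, against 3.62 and 3.61 for WT -Fe and 3.82 and 3.72 for WT +Fe. Its mean over all arrays, 3.93, lay below the 25th percentile of all probe sets, 4.96.

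At the edge of the rule, the narrowest gaps inside were 0.83 for 265200_s_at, 0.85 for 257321_at (nad1) and 0.86 for 254298_at. Just outside were AT1G63820 and 264790_at at 0.79 each and AT5G21020, also at 0.79, so no break in the values separates members from non-members. On the WT limit, 254020_at and 250662_at, both at 0.47, were inside, and 264042_at at 0.61 was the nearest outside. In all, 74 probe sets reached the gap of 0.8 in fit, of which 46 had a WT mean difference of at least 0.5. With the genotypes exchanged, the same thresholds were met by 116 probe sets, induced in WT and not in fit. Turned to lower signal in iron-deficient fit without a lower mean in WT, they were met by 83. The count to set beside these is 28, the probe sets that met both thresholds before the 8 left-out genes were taken away to give 20. It was smaller than either.

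**Figure D3:**
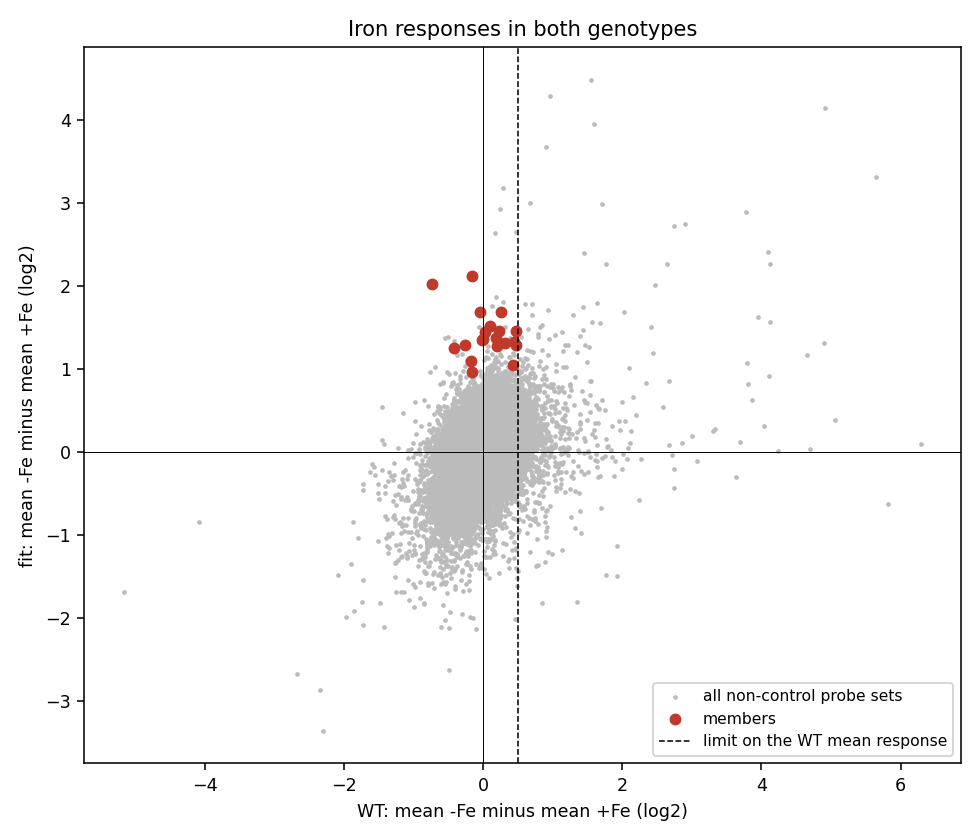
Mean log2 difference between iron-deficient and iron-sufficient roots in fit (vertical axis) against that in WT (horizontal axis) for all 22746 probe sets in grey and the 20 members in red. The members lie between 0.96 and 2.11 in fit and left of the dashed WT limit of 0.5, and grey points higher up include the genes left out by name.

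In WT, the 2 groups overlapped for 12 members. Both WT -Fe arrays lay above both WT +Fe arrays for 7 members, against 18.9% of all probe sets, and below for 1, against 19.3% of all probe sets. Under iron sufficiency both fit arrays lay above both WT arrays for 5 members (261065_at, 247793_at, AT3G01490, 246913_at and 261470_at), against 17.3% of all probe sets. They lay below for 5 (AT1G69526, 251432_at, 246481_s_at, 263231_at and AT2G04230), against 16.5% of all probe sets, and the groups overlapped for the other 10. The rule used the iron-sufficient arrays of both genotypes, so nothing is read from these counts. The mean difference between fit and WT under iron sufficiency had a median of -0.05 over the members and 0.00 over all probe sets. Both fit -Fe arrays lay above all 6 other arrays for 19 members and for 5.55% of all probe sets, which restates the rule.

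**Figure D4:**
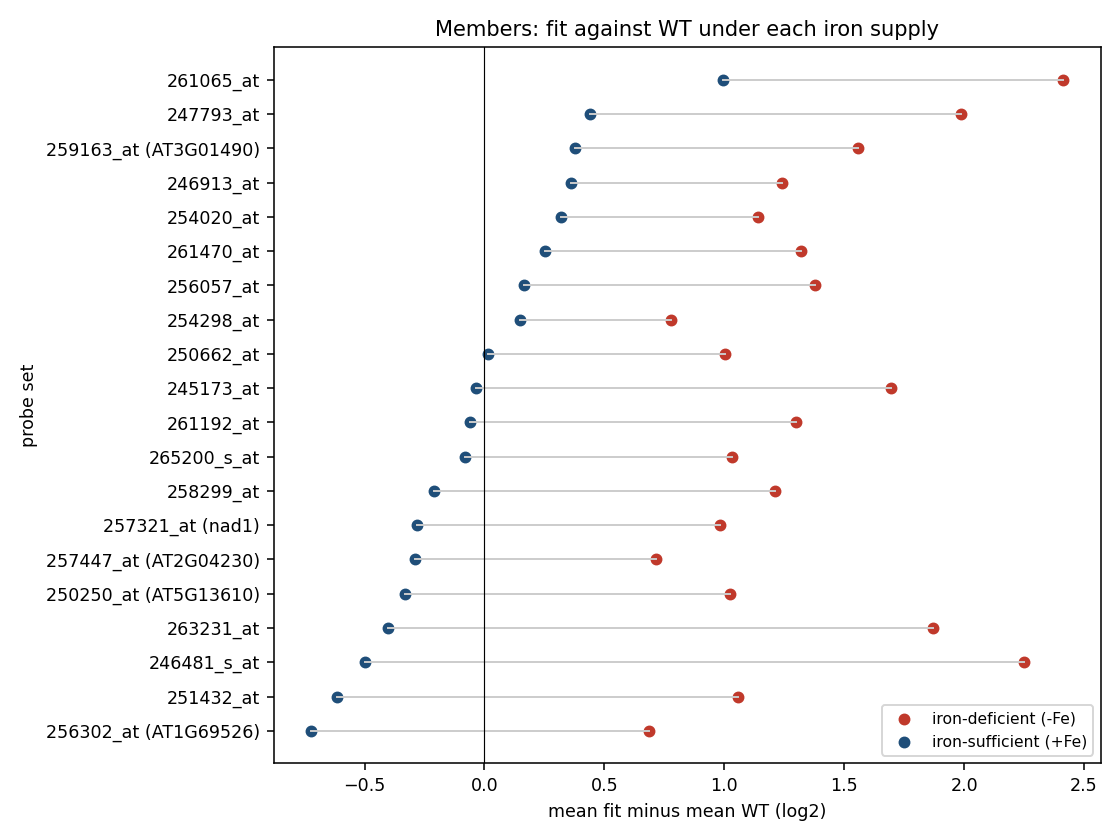
Mean log2 difference between fit and WT (horizontal axis) for the 20 members, under iron deficiency in red and under iron sufficiency in blue, ordered by the iron-sufficient value. The iron-deficient differences lie between 0.69 and 2.41, and the iron-sufficient ones lie on both sides of 0, from -0.72 for AT1G69526 to 0.99 for 261065_at.

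A linear model over all probe sets (limma, called at an adjusted p under 0.05) gives the same contrasts with a spread shared by the 4 groups. It called 3 members higher in the iron response in fit (263231_at, 245173_at and 261065_at), against 0.132% of all probe sets, and all 20 had an unadjusted p under 0.05, against 3.69% of all probe sets. Under iron deficiency it called 5 members higher in fit than in WT (those 3, AT3G01490 and 247793_at), against 0.0747% of all probe sets. The difference between the responses of fit and WT was called higher by limma for 0 members, against 0.00879% of all probe sets, and 19 of the 20 had an unadjusted p under 0.05, against 1.26% of all probe sets, AT2G04230 being the exception. With sufficient iron 0 members were called higher or lower in fit by limma, against 0.00879% and 0% of all probe sets, and 1 had an unadjusted p under 0.05 in each direction, 261065_at higher, against 1.11% of all probe sets, and AT1G69526 lower, against 0.725%. With the replicate number as a block, limma called 14 members in the iron response in fit, 2 (246481_s_at and 263231_at) in the difference of responses, 10 between fit and WT under iron deficiency and 0 under iron sufficiency. Over all probe sets the blocked fit called 145, 40, 134 and 4 of 22746. The members were selected on these contrasts, so the counts are descriptions. They depended on single arrays. In the iron response in fit, 4 members were called without fit -Fe replicate 1, 1 without fit -Fe replicate 2 or either WT -Fe array, and 0 without any 1 of the 4 iron-sufficient arrays. Between fit and WT under iron deficiency, 5 were called without fit -Fe replicate 1, 0 without WT -Fe replicate 1, and 1 without any 1 of the other 6 arrays.

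The count of members depended most on a single array. With fit -Fe replicate 1 left out, the rule found 931 probe sets, and with fit -Fe replicate 2 left out it found 69. Without fit +Fe replicate 1 or 2 it found 38 and 119. Leaving out a fit array can only keep or widen the gap. The 20 therefore stayed among them by construction, and these counts could not fall. Fit -Fe replicate 2 and WT -Fe replicate 2 also had the highest ratios of 3' to 5' signal for the control transcripts of actin, GAPDH and ubiquitin, a measure of RNA degradation. The mean of the 3 ratios was 7.20 and 4.88 on these arrays, against 2.35 to 3.35 on the other 6. Replicate 2 had the higher ratio in each group, so the replicate block cannot be fully separated from RNA quality. Fit -Fe replicate 2 correlated with its own replicate at r = 0.963 across probe sets, and with WT -Fe replicate 2 at r = 0.979. Of the 20 members, 13 read higher on fit -Fe replicate 2 than on replicate 1, with a median difference of 0.16 and a range from -0.55 to 0.84, against 51.5% of all probe sets. In WT -Fe, 14 read higher on replicate 2 (median 0.20, range -0.31 to 1.47), against 52.5% of all probe sets. The part of RNA quality in the members' signal was not tested. On fit -Fe replicate 1 alone, the members stood 0.87 to 1.86 above the mean of fit +Fe (median 1.29), and on replicate 2 alone 0.96 to 2.37 (median 1.45). The rule required at least 0.8 on each array.

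Genes of pathways that iron-starved roots may engage were listed to set beside the members. Of 120 genes in 7 lists, 21 had a probe set naming them alone and are termed measured below. None of these 21 is a member. The other listed genes had no such probe set. The 14 unnamed members and the 1 naming several genes could not be matched to the lists, so listed genes may be among them. In the mitochondrial stress and alternative respiration list, limma called 0 of 5 measured genes in either direction in the iron response in fit, with a median log2 difference of 0.28 against 0.03 for all probe sets. The highest was AT5G51440, a mitochondrial small heat shock protein, with 1.36 (SE 0.28, limma adjusted p = 0.189, and 1.81 without fit -Fe replicate 2). With the 3' to 5' control ratio as a covariate it was called higher (log2 1.75, limma adjusted p = 0.0123). AT5G51440 was also higher in WT under iron deficiency, with 5.95 and 5.89 on the WT -Fe arrays and 4.98 on both WT +Fe arrays. Its difference of responses was 0.42 (SE 0.40) and was not called. NDB3, an alternative NAD(P)H dehydrogenase, followed with 0.91 (SE 0.22, limma adjusted p = 0.297). In the detoxification list 0 of 3 were called (median -0.14), and GSTU25, a glutathione transferase, had the highest value. Its log2 signal was 10.70 and 11.05 for fit -Fe and 10.10 and 9.82 for fit +Fe, against 9.68 and 9.69 for WT -Fe and 10.09 and 9.96 for WT +Fe. Its iron response in fit was 0.92 (SE 0.20, adjusted p = 0.222) and its difference of responses 1.26 (SE 0.28, adjusted p = 0.450).

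In the abscisic acid and dehydration list 0 of 3 measured genes were called in the iron response in fit (median -0.57), with COR15A at 0.03, COR47 at -0.57 and XERO2, a dehydrin, at -1.04 (SE 0.25). In the starvation and senescence list 0 of 6 were called (median -0.12), with IVD and MCCA, both of leucine breakdown, at -0.28 and 0.22. PDF1.2, a defensin and the 1 measured gene of the ethylene, jasmonate and wounding list, had 0.31 (SE 0.29) and was not called. No gene of the heat shock list had a probe set naming it alone, so nothing is said of that list. In the metal homeostasis list 2 of 3 were called higher, BHLH101 and PYE, transcription factors of the iron deficiency response, and 0 lower, against 0.132% and 0.0703% of all probe sets. The PYE call was lost without any 1 of the 8 arrays, and the BHLH101 call without either fit +Fe array. PYE had a difference in WT of similar size, with 7.92 and 7.90 on the WT -Fe arrays and 6.46 and 6.57 on the WT +Fe arrays. The metal transporter ZIP9 was called lower in fit than in WT under iron deficiency, as were 0.198% of all probe sets, and BHLH101 was called higher in fit under iron sufficiency, as were 0.00879% of all probe sets. The ZIP9 call was lost without any 1 of the fit +Fe or WT arrays, and this BHLH101 call without any 1 of the 4 iron-sufficient arrays. With the replicate block BHLH101 was also called higher in fit under iron deficiency (log2 1.31, limma adjusted p = 0.0334). The difference of responses was called for 0 of the 21 in either direction by limma, against 0.0659% of all probe sets called lower. With the 3' to 5' control ratio as a covariate, the difference of responses of BHLH101 was called lower (log2 -1.80, limma adjusted p = 0.0354).

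Of 24 markers of root hairs, endodermis, stele and shoot photosynthesis, 5 had a probe set naming them alone. Of these, 0 were called by limma in any of the 4 comparisons. In the iron response in fit, expansin genes of root hairs had negative values, with EXPA7 at -1.28 (SE 0.33, adjusted p = 0.321) and EXPA18 at -1.23 (SE 0.31, adjusted p = 0.313). With the replicate block EXPA18 was called lower (limma adjusted p = 0.0464). EXPA7 read 7.76 and 7.62 on the fit -Fe arrays and 9.05 and 8.87 on the fit +Fe arrays, against 9.21 and 8.77 on the WT -Fe arrays and 9.06 and 8.03 on the WT +Fe arrays, so that the iron-deficient fit arrays were the lowest of the 8. The markers of photosynthesis, RCA, LHCB4.1 and PORB, had -0.67, -0.45 and 0.01. In whole roots, fewer cells of a type and less RNA per cell cannot be told apart, and the part of cell composition in the members' signal was not tested.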

How the data were processed

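RNA from roots was biotin-labelled (one-cycle protocol) and hybridised to 8 Affymetrix arrays, 2 per group, per the labels' protocols. The authors deposited a linear intensity for each probe set, computed with RMA per the submitters' processing notes. The RMA version was not given in the sources used here, nor was the set of arrays it ran on. Intensities spanned 7.13 to 21060, and log2 was taken of them. Leaving out 64 control probe sets gave 22746. Of these, 13513 named 1 gene, 503 several and 8730 were unnamed here, from the platform annotation with symbols updated from RefSeq (TAIR10.1). The number of arrays limits the precision, and p-values measure the spread between samples labelled as biological replicates.

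Group means were fitted to all 8 arrays across all probe sets with limma 3.58.1 in R 4.3.3 (4 residual and 3.82 prior degrees of freedom), with Benjamini-Hochberg adjustment. Replicate deviations of equal number correlated between 0.13 and 0.66 over the 6 pairs of groups, the highest between fit -Fe and WT -Fe. The replicate numbers, taken from the labels, do not by themselves state a pairing. The main fit treated the arrays as unpaired, and it gave the SEs and every call for which no other setting is named. An alternative fit read the replicate numbers as pairs, through a block. The blocked fit is given where it changed a call. Replicate 2 had the higher 3' to 5' control ratio in each group, so the block cannot be fully separated from RNA quality. Errors of log2 differences are standard errors of the main fit, without the block (SE). The fit was tested on simulated data. The members and the gene lists were chosen with earlier results of these data known. The naming rule asks for all one-gene members, the 3 other members with the widest gaps, the list genes called and up to 4 more per list. The text goes beyond it and gives every member. Promoter sequences were not analysed here.

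The alternatives were a replicate block, quantile normalisation, median centring, a trended and robust variance, omission of dim probe sets, the control ratio as a covariate, only the groups compared, other thresholds of the rule, and omission of single arrays. Omission of both iron-deficient replicate 2 arrays was chosen after seeing the data.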

Additional observations from a re-analysis of the deposited data

Results flagged for a closer look

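Probe set 265200_s_at was the 1 member for which both WT -Fe arrays lay below both WT +Fe arrays, with a mean WT difference of -0.16 on the log2 scale, while both fit -Fe arrays lay above both fit +Fe arrays. This opposition was not tested beyond the fit, which did not call the difference of responses, and the rule itself used these arrays.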

How the results depend on the processing

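With a replicate block, limma called 145 probe sets in the iron response in fit (55 higher, 90 lower, against 30 and 16 without it), 40 in the difference of responses, 134 between fit and WT under iron deficiency and 4 under iron sufficiency, with 14, 2, 10 and 0 members among them. Beyond the calls given with the results, the block changed no call of a list gene. With the control ratio as a covariate the counts were 153, 82, 198 and 22, with 7, 2, 12 and 0 members. Beyond the BHLH101 and AT5G51440 calls given with the results, the covariate added limma calls of list genes. BHLH101 and GSTU25 were called higher in fit than in WT under iron deficiency (log2 1.22 and 1.14). With only the groups compared, 6 probe sets were called in the iron response in fit, 10 under iron deficiency and 6 under iron sufficiency. No member was among them. The calls of BHLH101 and PYE in the iron response in fit and of ZIP9 under iron deficiency were lost in that setting. BHLH101 stayed called under iron sufficiency. Under iron sufficiency 4 probe sets were called with quantile normalisation, median centring, a trended and robust variance or no dim probe sets, and 6 without both iron-deficient replicate 2 arrays. Leaving out 1 array gave 1 to 69 calls in the iron response in fit, 3 to 26 in the difference of responses, 21 to 75 under iron deficiency and 0 to 6 under iron sufficiency, against 46, 17, 62 and 2 with all arrays. The rule found 12 members at a gap of at least 1, 19 to 931 with 1 array left out, and 60 without both iron-deficient replicate 2 arrays, of which 19 are members here. Each member kept a positive iron response in fit in every alternative, the lowest being 0.71 for 251432_at with the covariate. The rule sets every fit -Fe array of a member above every fit +Fe array, so omission of arrays could not turn a sign. The block, the variance setting, the omission of dim probe sets and the use of only the groups compared left the estimates unchanged. The cause of the shifts in counts and estimates was not tested, beyond the smaller number of arrays where some were left out.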
